A study of Homo sapiens with 2 samples.

Results

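The ribosomal protein gene module comprised the genes of the matrix whose symbols are RPL or RPS followed by a number (with an optional A, X, Y or L ending, as in RPL10A, RPS4X or RPL22L1), together with RPLP0, RPLP1, RPLP2 and RPSA. The rule found 86 of 36601 genes, 52 with RPL symbols and 34 with RPS symbols. All 86 were in the GENCODE 29 annotation, on 22 chromosomes, and none was among the genes used to cluster the cells. The 2 Y-linked members were counted and given no value. Of the other members, 82 reached 10 CPM (a gene's UMIs, the unique molecules counted, scaled by all gene UMIs) over all cells; the remaining 2 were RPL3L, with 9 UMIs in all, and RPL10L, with 2.

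The cells were cardiomyocytes differentiated for 15 days from the H9 human embryonic stem cell line, all carrying the gCaMP6f fluorescent calcium reporter. They had been frozen, thawed, taken up in medium with serum and a ROCK inhibitor, stained with hashtag antibodies (which carry an oligonucleotide that marks the starting sample) and pooled into 1 droplet experiment. Both GEO samples are libraries of that pool, and their molecules were counted by unique molecular identifiers (UMIs) in 1 matrix of 24038 barcodes with 13 hashtags and 0 repeated barcodes. What each hashtag stands for is not in the labels, so no treated or control group is known. All comparisons are therefore between groups of cells of that pool, without replicates, tests or p-values.

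A ribosome is built of a large and a small subunit, each a core of ribosomal RNA with a set of proteins that are needed in equal numbers. The RPL genes encode proteins of the large subunit and the RPS genes those of the small subunit, and their messenger RNAs are among the most abundant of any dividing or growing cell. Most of these messengers start with a C and a run of pyrimidines, the terminal oligopyrimidine (TOP) motif, through which mTOR and the RNA-binding protein LARP1 control their translation together. A few members are copies whose protein can take the place of the usual one: RPL3L is a muscle form of RPL3, RPL10L and RPL39L were first known from testis, RPS27L is a target of the tumour suppressor p53, and RPL22L1 is a copy of RPL22.

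The start-site sequences of some copies and usual partners are shown because copies were among the members that departed from the rest in the counts below. Each is 60 bases of GRCh38.p14 from RefSeq's promoter table, 5′ to 3′ on the gene's strand, with 40 bases before and 20 from the annotated start. Capitals mark a run of at least 5 pyrimidines that begins with C within 5 bases of that start, on the coding strand. For a gene with more than 1 listed start, the window with the longest run was taken, so the runs shown are selected for. RPL3, RPL10 and RPL10L also had entries and are not shown.
RPS27: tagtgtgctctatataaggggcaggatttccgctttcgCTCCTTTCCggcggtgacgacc
RPS27L: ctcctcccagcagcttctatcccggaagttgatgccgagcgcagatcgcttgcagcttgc
RPL22: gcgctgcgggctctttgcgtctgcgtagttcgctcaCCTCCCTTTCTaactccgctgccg
RPL22L1: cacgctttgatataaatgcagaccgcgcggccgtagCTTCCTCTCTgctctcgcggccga
RPL26: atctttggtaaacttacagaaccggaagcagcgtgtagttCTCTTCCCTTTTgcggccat
RPL26L1: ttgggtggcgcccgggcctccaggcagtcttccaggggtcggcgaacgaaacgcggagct
RPL39: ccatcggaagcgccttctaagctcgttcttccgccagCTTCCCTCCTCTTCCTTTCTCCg
RPL7L1: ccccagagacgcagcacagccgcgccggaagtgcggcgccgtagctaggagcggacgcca
The windows lie at chr1:153990722-153990781 on the plus strand for RPS27 and chr15:63157458-63157517 on the minus strand for RPS27L. Those of RPL22 (chr1:6199576-6199635) and RPL22L1 (chr3:170870176-170870235) are both on the minus strand. RPL26 (chr17:8383174-8383233) is on the minus strand and RPL26L1 (chr5:172958689-172958748) on the plus strand. RPL39 (chrX:119791611-119791670) is on the minus strand and RPL7L1 (chr6:42879576-42879635) on the plus strand.

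Of the 86 members, 67 had an entry in that table, and RPL39L had none. A pyrimidine run at any listed start was found for 53 of the 62 members that are not named as copies (85.5%), against 25.2% of all 27305 genes with an entry. The run of the opposite base class, G or A starting with G, was found in 8.06% of the same members and 19.2% of all genes. Among the 5 copies with an entry, RPL22L1 alone had the pyrimidine run, and RPS27L, RPL26L1, RPL7L1 and RPL10L did not. Over the whole 300-base window and both strands, CCGGAAG, a core that ETS factors bind, was found in 35.5% of the 62 members and 12.2% of all genes, and AAGATGGC, a YY1-type motif whose first 3 letters can overlap the end of CCGGAAG, in 9.68% and 3.52%. TATAAA was found in 8.06% of them and 14% of all genes. A translation-factor list (21 genes known or often listed as TOP genes) had the run in 13 of its 15 matched genes (86.7%). Its genes were chosen as TOP genes, so this share is no result about them. A ribosome-biogenesis list (28 genes of ribosomal RNA synthesis and processing) had the run in 6 of 23 (26.1%). These matches describe the letters in the windows and not binding or use.

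After filters on cells and doublets, 20090 cells remained, with a median of 11871 UMIs. Clusters were named from marker genes as cardiomyocyte-like (15165 cells, all 12 markers detected), stromal-like (1629), epithelial-like (747), endoderm-like (342), epicardial-like (248) and endothelial-like (66). Thus 3032 cells of the labelled cardiomyocyte preparation carried markers of other lineages. A further cluster of 1893 cells had a median of 2169 UMIs and 12.2% mitochondrial UMIs, was led by EMC10, FSIP2 and MALAT1, and was left unnamed for its depth and described apart as the low-depth cluster. Its cardiomyocyte markers summed to 42491 CPM, within the 39459 to 62566 CPM of the cardiomyocyte-like clusters. The cardiomyocyte-like cells formed 7 clusters, called here by 2 of their leading genes. Scrublet marked 7.09% of barcodes as doublets where 19.2% were expected, so doublets remain in all groups.

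Ribosomal protein genes gave 65823692 of 273968519 gene UMIs, or 24.0%. Intervals here are at 95% and cover counting error only. In the middle 50% of cells the share ran from 17.6% to 27.1%. The large-subunit genes gave 14.2% and the small-subunit genes 9.79% of UMIs. The ratio of large to small was between 1.35 in endoderm-like cells and 1.504 in the MT3/NMB cluster, and 1.46 in cardiomyocyte-like cells. The 10 members with the most UMIs gave 24.2% of the module's UMIs. Among them were RPLP1, a stalk protein that recruits elongation factors, RPL10, RPS18, RPL41, RPS4X, RPL13, RPS2, RPS14 and RPS3A. RPLP1 was at 7538 CPM over all cells and RPL10 at 6553 CPM. CPM values are not divided by transcript length and are not used to rank one gene against another. Reads of ribosomal protein genes can also match their many processed pseudogenes, and how such reads were assigned is not given in the sources used here, so every level of a single member carries that uncertainty.

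Between lineages, the share of UMIs was lower in cardiomyocyte-like cells than in the other named classes. It was 23.9% in cardiomyocyte-like cells, 24.8% in stromal-like, 28.7% in endothelial-like, 29.1% in endoderm-like, 29.7% in epithelial-like and 29.997% in epicardial-like cells. The ratio of cardiomyocyte-like cells to the other classes pooled (27.4%) was 0.871 (0.870 to 0.872), and 0.808 when stromal-like cells were left out of the pool. The middle 50% of cells overlapped between all of these classes, from 18.9% to 26.8% in cardiomyocyte-like and from 26.7% to 33.1% in epicardial-like cells. Within hashtags, the pooled other classes were above the cardiomyocyte-like cells in 9 of the 9 hashtags that held at least 50 cells of both, by 1.03 to 1.34 times. Stromal-like cells were higher in 5 of 7 hashtags and lower in 2. Median depth was 12884 UMIs in cardiomyocyte-like cells and 11423 in the others, and median mitochondrial shares were 2.55% and 2.32%; their part in the difference was not tested.

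**Figure D1:**
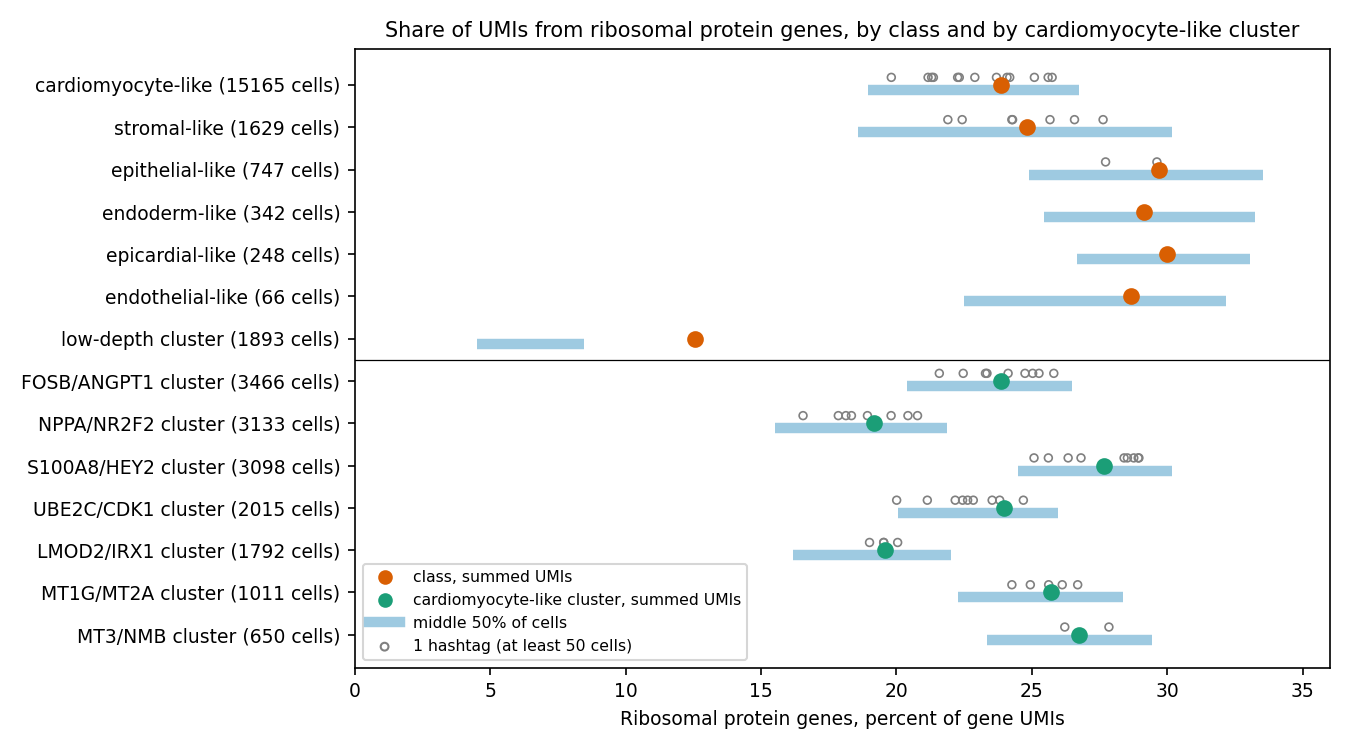
Share of gene UMIs from ribosomal protein genes (x axis, percent) for each class and, below the line, each cardiomyocyte-like cluster (y axis, with the number of cells). Filled points are summed UMIs, bars the middle 50% of cells and open circles single hashtags with at least 50 cells. The NPPA/NR2F2 and LMOD2/IRX1 clusters lie at 19.2% and 19.6%, the S100A8/HEY2 cluster at 27.7% and the low-depth cluster at 12.6%.

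This difference in share depends on the scale. A member was called when the ratio of CPM reached 1.5-fold, among genes with at least 10 CPM and 10 counts on the higher side. In cardiomyocyte-like against other classes, the median ratio of the 82 measured members was 0.870, and that of all 9430 measured genes 0.881, while under TMM scaling, which centres on the bulk of genes, both turned to above 1 (1.14 and 1.16). In this pooled comparison the median of the members was thus near that of all genes, and 74 of 82 members had ratios under 1 per total UMI. In the single classes the medians of members and of all genes lay further apart. Against cardiomyocyte-like cells, the medians were 1.251 in epithelial-like (all genes 1.12), 1.252 in epicardial-like (1.01), 1.21 in endoderm-like (1.05) and 1.19 in endothelial-like cells (0.974). With TMM they became 0.973, 1.10, 1.04 and 1.04, so that the epithelial-like median turned to under 1, and those of all genes 0.871, 0.891, 0.899 and 0.850. In stromal-like cells the median was 1.04 (all genes 1.16) and turned to 0.793 with TMM (all genes 0.885).

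Against the other classes pooled, the members with the highest ratios in cardiomyocyte-like cells were copies. In the comparisons of single classes, members that are not copies were called too, as given below. RPS27L was at 392 CPM in cardiomyocyte-like and 260 CPM in the other classes (1.504-fold, 1.47 to 1.54), and RPL39L at 40.8 and 26.9 CPM (1.52-fold, 1.42 to 1.62). These were the 2 of 82 members called higher, where 12.3% of all measured genes were called. RPL22L1 followed at 239 and 184 CPM (1.30-fold) and RPL26L1 at 111 and 99.0 CPM (1.12-fold). Within cardiomyocyte-like cells RPL39L was at 68.6 CPM in the UBE2C/CDK1 cluster. In the other cardiomyocyte-like clusters it was between 26.5 and 37.0 CPM, nearer to the 26.9 CPM of the other classes. On the low side 1 member was called, where 24.8% of all genes were. With TMM, RPS27L, RPL39L and RPL22L1 were called higher (3 of 82, with 26.9% of all genes) and 0 members lower (12.4%). Other members far on the low side were RPS27 (0.697) and RPL6 (0.721). RPS27 and RPS27L thus had ratios on opposite sides of 1 in the same cells under both scalings, and within hashtags RPS27L was higher and RPS27 lower in cardiomyocyte-like cells in 9 of 9 hashtags. RPS27L reached 1.5-fold only narrowly: the ratio was 1.49 over cells with a hashtag, and without Hashtag1 or without Hashtag6 both copies fell short.

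The levels of RPS27L differed between lineages more than those of RPS27. It stood at 178 CPM in epicardial-like, 211 in epithelial-like, 275 in stromal-like, 325 in endoderm-like, 392 in cardiomyocyte-like and 440 CPM in endothelial-like cells. RPS27 ranged from 1950 CPM in cardiomyocyte-like to 3328 CPM in epicardial-like cells. RPL39L was at 12.3 CPM in endothelial-like cells, where it rests on 8 UMIs, and between 23.5 and 34.0 CPM in the other non-cardiomyocyte classes. RPL22L1 was lowest in epithelial-like cells at 139 CPM and highest in epicardial-like cells at 260 CPM. RPL7L1, whose protein acts in ribosome assembly, lay between 90.2 and 110 CPM in all 6 classes, and RPL26L1 between 88.1 and 116 CPM.

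In epithelial-like cells 8 of 82 members were called higher than in cardiomyocyte-like cells (28.0% of all genes) and 2 lower (18.9%). Among them were RPS27 (1.60), RPS19 (1.56), the gene most often mutated in Diamond-Blackfan anaemia, and RPL31 (1.56). RPS6, the small-subunit protein phosphorylated by S6 kinase, was at 4682 and 3049 CPM (1.54-fold). The 2 lower members were RPS27L (0.538) and RPL22L1 (0.581), while RPL22 itself was called higher (1.51-fold). All 8 higher calls fell under 1.5-fold with TMM, and RPS27L and RPL22L1 kept theirs; in cells of 5000 to 20000 UMIs RPL22L1 was at 0.675, short of the threshold.

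In epicardial-like cells 8 members were called higher (22.3% of all genes) and 2 lower (21.0%). RPL7 was at 4209 against 2405 CPM (1.75-fold, 1.72 to 1.78), RPS27 at 1.71-fold, RPL37 at 1.70-fold and RPS29 at 1.67-fold; with TMM, RPL7 and RPS27 stayed past 1.5-fold. RPS27L was 0.455 of the cardiomyocyte-like level (0.418 to 0.494) and RPL39L 0.633. In endothelial-like cells 5 members were called higher (25.4%) and 1 lower (29.4%): RPL28 was at 1.84-fold (1.78 to 1.90), RPS19 at 1.70-fold, RPS3 at 1.68-fold, RPL38 at 1.59-fold and RPS27 at 1.57-fold, and RPL39L was lower. With TMM RPL28 alone stayed past 1.5-fold on the high side (1.61). In endoderm-like cells no member was called either way (21.0% of genes higher, 16.5% lower). In stromal-like cells 0 members were called higher (24.8%) and 1 lower (10.9%), RPL39L at 0.577.

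**Figure D2:**
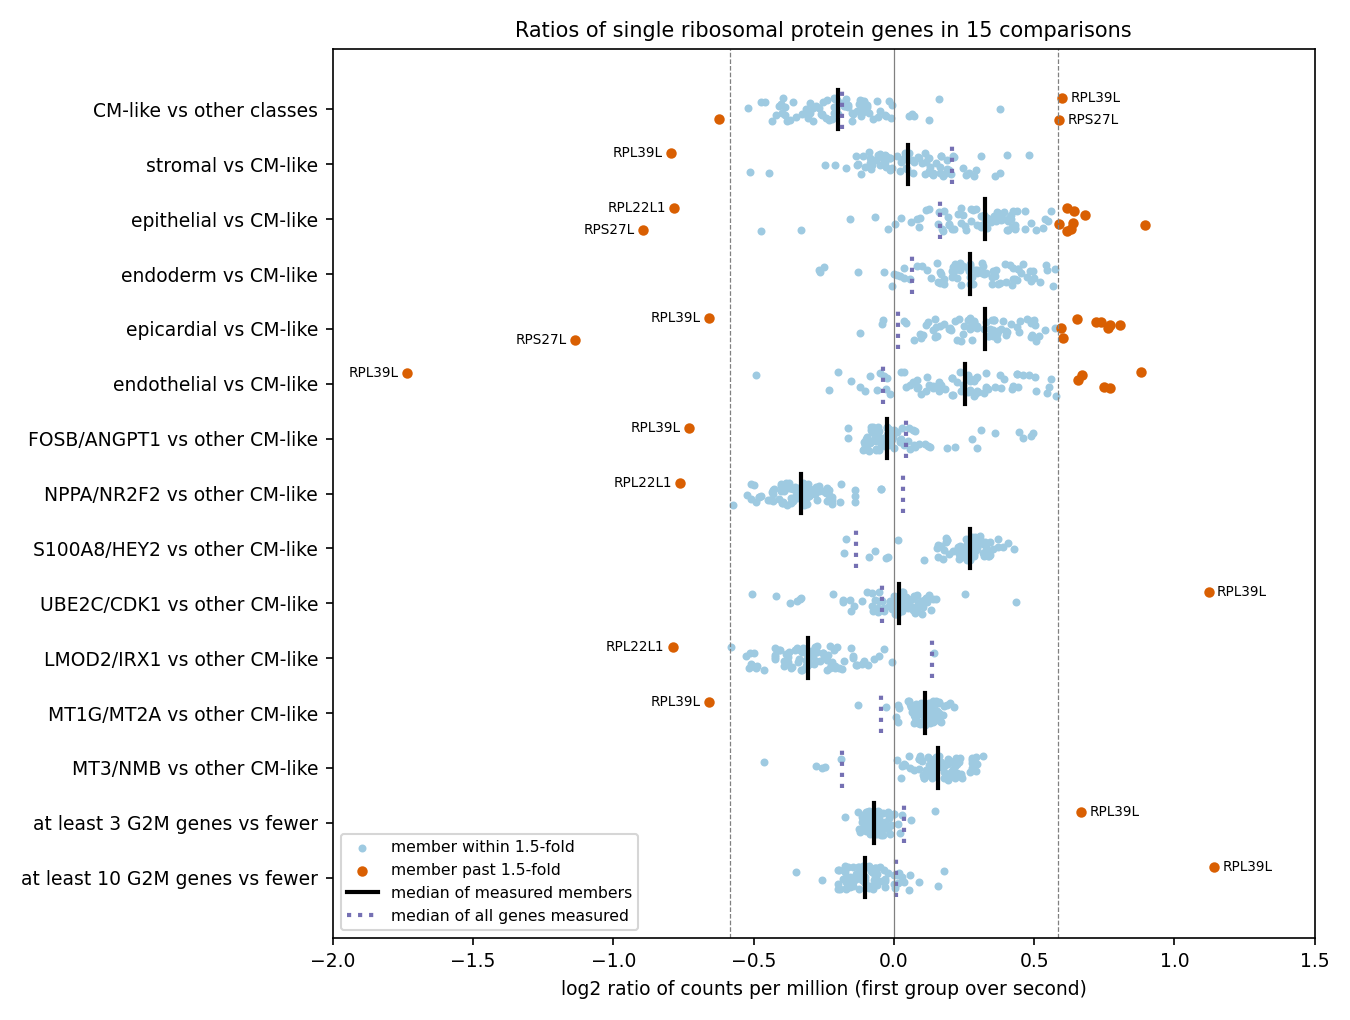
log2 ratio of CPM (x axis) for each measured member in 15 comparisons (y axis). CM-like stands for cardiomyocyte-like, black bars mark the median of the members, dotted bars the median of all measured genes and dashed lines 1.5-fold. Members cluster within each comparison, and RPL39L, RPL22L1 and RPS27L are the labelled points past 1.5-fold.

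Among cardiomyocyte-like clusters, the share ran from 19.2% in the NPPA/NR2F2 cluster (3133 cells, led by natriuretic peptide genes) and 19.6% in the LMOD2/IRX1 cluster (1792) to 27.7% in the S100A8/HEY2 cluster (3098). Between them were FOSB/ANGPT1 (23.9%, 3466 cells), UBE2C/CDK1 (24.0%, 2015), MT1G/MT2A (25.7%, 1011) and MT3/NMB (26.7%, 650). The highest was 1.44 times the lowest. The middle 50% of cells did not overlap between the extremes, with 15.5% to 21.9% in NPPA/NR2F2 and 24.5% to 30.2% in S100A8/HEY2. In all 6 hashtags with at least 50 cells of both, the NPPA/NR2F2 share was the lower, at 0.626 to 0.718 of the S100A8/HEY2 share. The FOSB/ANGPT1 share was also below that of S100A8/HEY2 in 9 of 9 hashtags, at 0.833 to 0.905 of it.

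The clusters differed in depth as well. Median UMIs were 8538 in NPPA/NR2F2, 9741 in LMOD2/IRX1, 12952.5 in S100A8/HEY2 and 23320 in UBE2C/CDK1. Median mitochondrial shares were 2.88%, 3.26%, 1.92% and 1.89%. When the cells of each cluster were split by UMIs into 5 equal bins, the share was 17.4% to 20.1% in NPPA/NR2F2 and 25.6% to 28.4% in S100A8/HEY2, so no bin of one reached any bin of the other. Over all cardiomyocyte-like cells the share was 19.5% in the shallowest bin and 25.03% and 24.7% in the deepest 2. Across the 15165 cells of this library the share had a Pearson correlation of 0.379 with log10 UMIs and -0.448 with the mitochondrial share.

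The members moved nearly as 1 block between these clusters. In NPPA/NR2F2 all 82 measured members had ratios under 1 against the other cardiomyocyte-like cells, with a median of 0.794 where all genes had 1.02 (0.739 and 0.951 with TMM). In LMOD2/IRX1 81 of 82 were under 1, with a median of 0.809 against 1.10 (0.698 and 0.949 with TMM). In S100A8/HEY2 76 of 82 were over 1, with a median of 1.21 against 0.910 (1.42 and 1.07 with TMM). The medians of MT1G/MT2A (1.08, all genes 0.968) and MT3/NMB (1.11, all genes 0.880) were also above 1 under both scalings. Few members passed 1.5-fold: 1 lower in NPPA/NR2F2 (4.33% of all genes) and 0 higher (7.48%), 1 lower in LMOD2/IRX1 (4.44%) and 0 higher (8.39%), and none in S100A8/HEY2 (0.084% higher, 12.3% lower) or MT3/NMB (5.52% and 16.3%). With TMM, which shifts the median of all genes, 8 members were lower in NPPA/NR2F2 (6.36% of all genes lower, 5.47% higher), 23 in LMOD2/IRX1 (8.23% lower, 4.41% higher) and 5 higher in S100A8/HEY2 (1.61% higher, 5.35% lower), RPL29 being farthest there at 1.58-fold.

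Per total UMI, the single member called in both low clusters was RPL22L1. Its level was 149 CPM in NPPA/NR2F2 and 143 CPM in LMOD2/IRX1, against 175 in MT3/NMB, 235 in FOSB/ANGPT1, 240 in MT1G/MT2A, 283 in S100A8/HEY2 and 297 in UBE2C/CDK1. The ratio to the other cardiomyocyte-like cells was 0.590 (0.572 to 0.609) in NPPA/NR2F2 and 0.579 (0.557 to 0.602) in LMOD2/IRX1. It was lower in NPPA/NR2F2 in 8 of 8 hashtags, at 0.554 to 0.767, and in LMOD2/IRX1 in 3 of 3. RPL22, the usual form, was at 1175 and 1135 CPM in these clusters and at 1276 to 1561 CPM in the others. The members nearest to this threshold in NPPA/NR2F2 were RPS6 at 0.671, RPL12 at 0.696 and RPS18 at 0.702, and in LMOD2/IRX1 RPS2 at 0.669 and RPL8 at 0.693. At the other end, RPL7L1 (0.968 and 1.10), RPS20 (0.968 and 0.996) and RPL31 (0.909 and 0.975) had the highest ratios in the low clusters.

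In FOSB/ANGPT1 a small set of members lay above a module that was otherwise level. The median was 0.983 (all genes 1.03), no member was called higher (2.45% of all genes), and RPL39L was the 1 called lower (2.9%), at 27.3 and 45.3 CPM (0.603), and at 0.726 within cells of 5000 to 20000 UMIs it was not. RPL23 was at 3236 and 2296 CPM (1.41-fold, 1.40 to 1.42) and RPL27A at 2013 and 1480 CPM (1.36-fold). RPL23 was higher in this cluster in 9 of 9 hashtags, by 1.201 to 1.43 times. RPL23 was among the lowest in UBE2C/CDK1, at 0.748, beside RPL31 at 0.705. RPL39L was called lower in MT1G/MT2A as well, at 26.5 and 41.9 CPM (0.634; 3.73% of all genes lower, 0.794% higher), and at 0.697 over cells with a hashtag it was not.

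RPL39L was the member that stood apart with cell-cycle genes. In UBE2C/CDK1, most of whose leading genes are those of mitosis, it was at 68.6 CPM. The other cardiomyocyte-like cells were at 31.5 CPM (2.18-fold, 2.09 to 2.27). RPL39L was the 1 member of 82 called higher (5.36% of all genes), with none lower (1.42%). The ratio was 2.07 to 3.87 within 9 of 9 hashtags and 2.18 to 2.74 over 5 alternatives of cell choice or scaling. The other 6 cardiomyocyte-like clusters lay between 26.5 and 37.0 CPM. RPL22L1 came next at 1.35-fold and RPS27L at 1.19-fold. RPL39, the usual form, was at 3463 CPM in UBE2C/CDK1, between 2401 CPM in LMOD2/IRX1 and 3974 CPM in S100A8/HEY2, and was higher in UBE2C/CDK1 than in the other cells in 3 of 9 hashtags. The median of the module in this cluster was 1.01 (all genes 0.972).

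**Figure D3:**
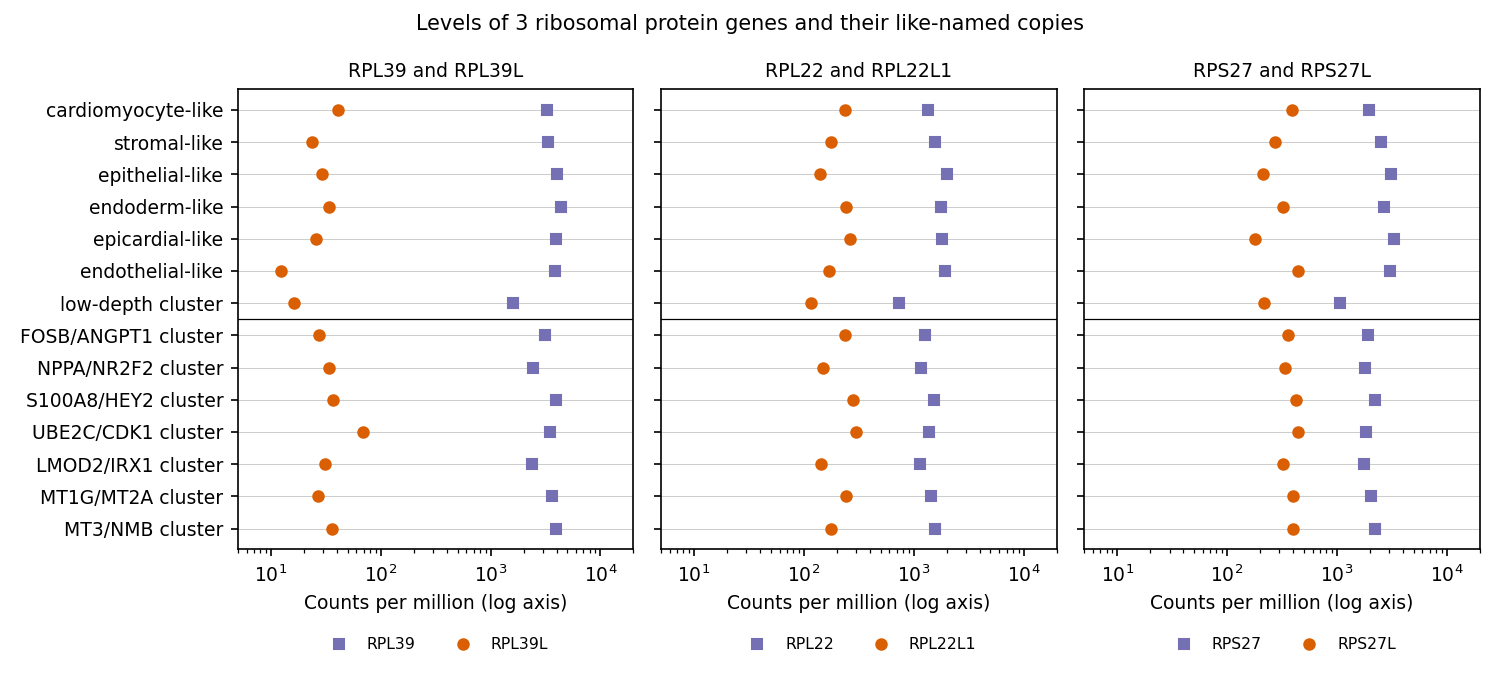
Levels (x axis, CPM on a log scale) of RPL39 and RPL39L, RPL22 and RPL22L1, and RPS27 and RPS27L in the 6 classes, the low-depth cluster and the 7 cardiomyocyte-like clusters (y axis); squares are the usual forms and circles the copies. RPL39L is highest in the UBE2C/CDK1 cluster at 68.6 CPM, RPL22L1 is low in NPPA/NR2F2 and LMOD2/IRX1 at 149 and 143 CPM, and RPS27L is lowest in epicardial-like cells at 178 CPM.

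Mitotic state was also read per cell, as the number of 54 G2M genes with a UMI after each cell was thinned to 3000 UMIs, which left out 389 of the cardiomyocyte-like cells. The 7915 cells with at least 3 such genes had a ribosomal protein share of 23.4% and the 6861 with fewer 24.6%, a ratio of 0.952 (0.951 to 0.952). It was lower in cells with at least 3 genes in all 12 hashtags that held both. This cut lies in the bulk of the cells, since 54.6% had 2 to 4 genes. At a cut of 10 genes, chosen after the data were seen, the 1314 cells at or above it had 22.5% and the others 24.1% (0.934). The UBE2C/CDK1 cluster did not have a lower share, with 23.98% against 23.82% in the other cardiomyocyte-like cells (1.006). By number of genes the share was 25.2% at 0, 23.5% at 4 and 23.9% at 10 to 14, and 20.6% in the 472 cells with 20 or more, whose median depth was 19324.5 UMIs against 12393 at 0 genes. The part of depth in this order was not tested.

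**Figure D4:**
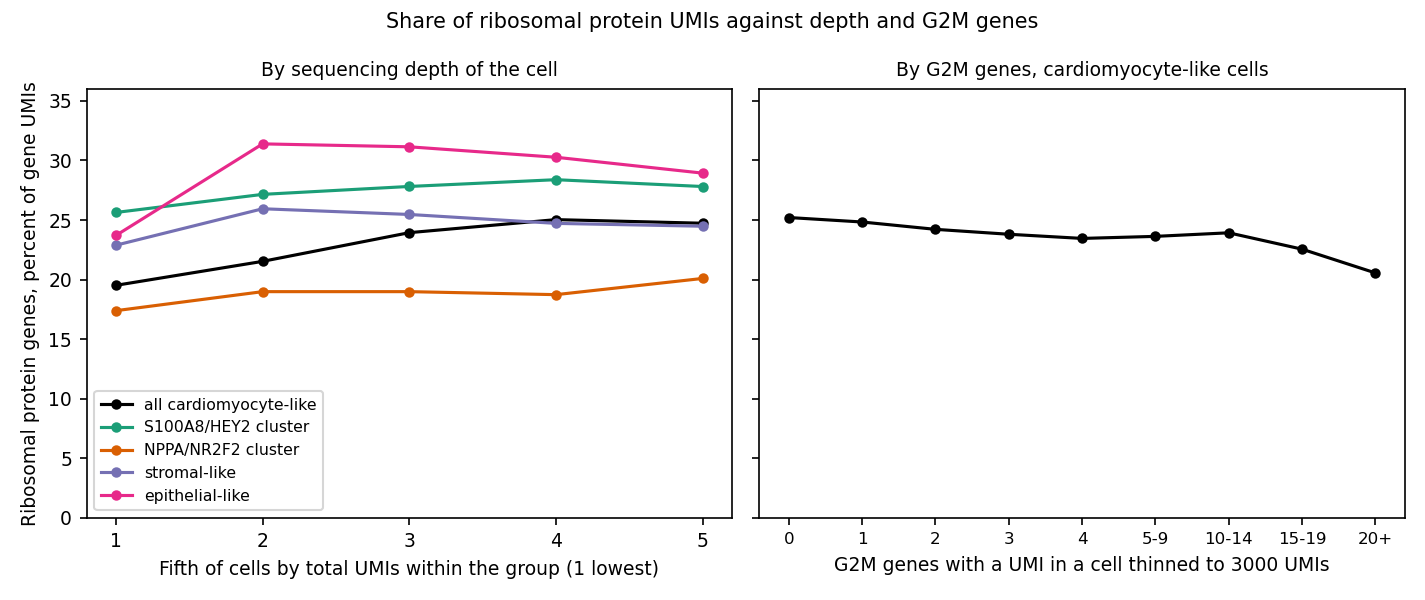
Share of gene UMIs from ribosomal protein genes (y axis, percent) by bin of cells ordered by total UMIs within each group, 5 equal bins from shallow to deep (left) and by the number of G2M genes in thinned cardiomyocyte-like cells (right). The NPPA/NR2F2 line stays between 17.4% and 20.1% and the S100A8/HEY2 line between 25.6% and 28.4%; on the right the share goes from 25.2% at 0 genes to 20.6% at 20 or more.

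Of the members, RPL39L again was the 1 called higher in cells with at least 3 G2M genes (2.97% of all genes) and none was lower (0.024%). It was at 48.4 and 30.5 CPM (1.59-fold, 1.52 to 1.66), and at 1.38-fold within cells of 5000 to 20000 UMIs, short of the threshold; it was higher in 11 of 12 hashtags. At 10 genes it was at 77.5 and 35.1 CPM (2.21-fold, 2.10 to 2.31), where 7.68% of all genes were higher and 2.13% lower. Of 42 listed S-phase genes 23 were also higher at the cut of 3 genes and 37 at the cut of 10, with 0 lower. By number of G2M genes, RPL39L was at 28.1 CPM at 0 genes, 35.2 at 4, 51.4 at 5 to 9, 69.98 at 10 to 14 and 90.4 CPM (84.6 to 96.5) at 20 or more. RPL39 went from 3501 CPM at 0 genes to 2659 CPM at 20 or more. RPL22L1 was highest at 10 to 14 genes, going from 235 CPM at 0 genes to 313 CPM at 10 to 14 and 193 CPM at 20 or more. RPS27L lay between 376 and 457 CPM throughout. The remaining members held together: the median was 0.953 at 3 genes (all genes 1.02) and 0.931 at 10 genes (all genes 1.01), and RPL31 was the lowest at both, at 0.886 and 0.786.

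A single hashtag was assigned to 9798 cells. In their cardiomyocyte-like cells (114 to 1051 per hashtag) the share ran from 19.8% for Hashtag14 to 25.7% for Hashtag5, with a median of 22.9%. The highest was 1.30 times the lowest, and 1.22 times when Hashtag14 was left out. The hashtags also differed in which clusters they held. NPPA/NR2F2 cells made up 74.4% of Hashtag14 and 80.4% of Hashtag15, and LMOD2/IRX1 cells 57.9% of Hashtag1 and 64.2% of Hashtag2, and these 4 had the 4 lowest shares (19.8%, 21.4%, 21.3% and 21.2%). The same 4 also had the shallowest cells, with median UMIs of 8150, 8282, 9961 and 10548, against 12167 or more in the other hashtags. The parts of cluster make-up and depth were not tested. Hashtag4, Hashtag5 and Hashtag6, with 12.6% to 19.6% of their cells in those 2 clusters, had 25.1%, 25.7% and 25.6%. Hashtag10 had few cells of either (7.13%), a share of 22.3% and the deepest cells (median 18072 UMIs). Inside 1 cluster the hashtags still differed, from 16.5% to 20.8% in NPPA/NR2F2 (8 hashtags) and from 25.1% to 28.95% in S100A8/HEY2 (9 hashtags), without overlap between the 2 clusters.

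**Figure D5:**
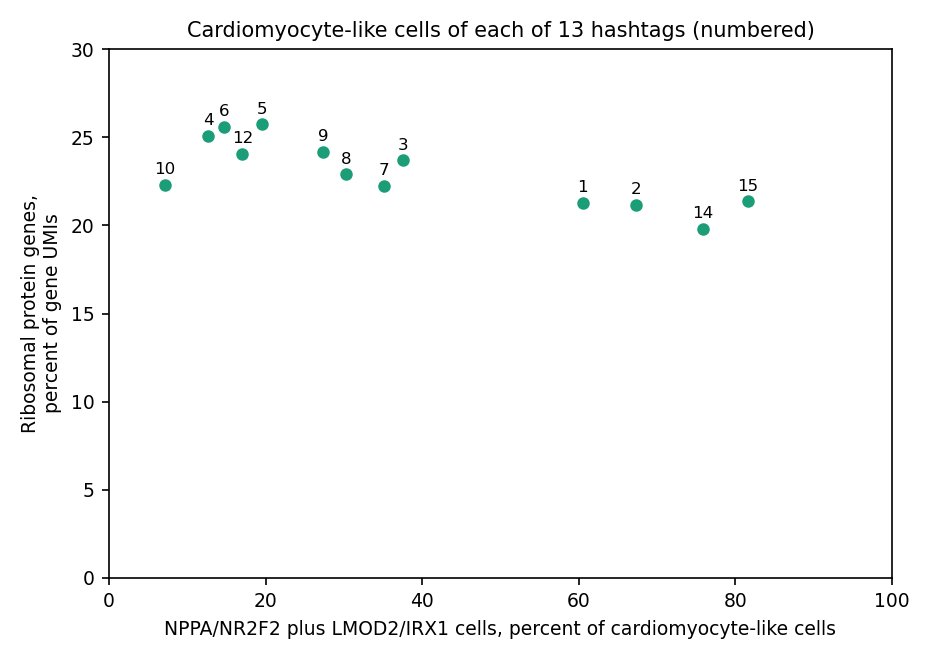
Share of gene UMIs from ribosomal protein genes in the cardiomyocyte-like cells of each hashtag (y axis, percent) against the share of those cells that fell in the NPPA/NR2F2 or LMOD2/IRX1 cluster (x axis, percent); each numbered point is 1 hashtag. The 4 hashtags above 60% (14, 15, 1 and 2) lie between 19.8% and 21.4%, and the highest is Hashtag5 at 25.7%.

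Across hashtags the members varied less than most genes at 10 CPM or more, and nearly as much as genes at 500 CPM or more, a set that holds most members. The highest hashtag was at least 1.5 times the lowest for 4 of 82 members, against 66.2% of 8398 genes at 10 CPM or more. The median of that ratio was 1.31 for the members, 1.65 for those genes and 1.37 for the 259 genes at 500 CPM or more. These 259 include the 77 members that reached this level, so that comparison is partly of the module with itself. RPL39L had the widest range, from 27.0 CPM in Hashtag2 over a median of 39.98 to 48.8 CPM in Hashtag6 (1.81). RPL22L1 went from 158 CPM in Hashtag14 over a median of 225 to 263 CPM in Hashtag10 (1.67). RPS27L went from 298 CPM in Hashtag2 over a median of 342 to 458 CPM in Hashtag6 (1.54). As a share of the module, RPL7L1 varied most (1.80), followed by RPL39L (1.70), RPL22L1 (1.54) and RPS26 (1.502), and RPS3 least (1.05). RPS26 ran from 675 CPM in Hashtag14 over a median of 785 to 995 CPM in Hashtag10.

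Over 12 groups, the 5 other classes and the 7 cardiomyocyte-like clusters, the level of most members followed the share of the module. RPL26 had the highest Pearson correlation with it on the log2 scale (0.989), and the lowest values belonged to RPS27L (-0.261), RPL39L (-0.256), RPL26L1 (-0.139), RPL7L1 (-0.033), RPS26 (0.308) and RPL22L1 (0.344). These points share 1 library, and the module's own members are part of its share. Of 2683 other genes at 50 CPM or more, the 10 most alike included NACA (0.954) and BTF3 (0.868), which form the nascent-chain complex at the ribosome exit, RACK1 (0.946), which is a ribosomal protein under another name, EEF1A1 (0.916), which brings tRNAs to the ribosome, and its exchange factor EEF1B2 (0.839), the snoRNA host ZFAS1 (0.901), RSL24D1 (0.889), EIF3F (0.856) and RPP21 (0.838). FAU and RPL36AL, which also encode ribosomal proteins, lay lower, FAU at 0.649 (rank 64) and RPL36AL at 0.270 (rank 485). NACA ran from 1435 CPM in LMOD2/IRX1 to 2407 CPM in epicardial-like cells.

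The other genes of the translation machinery followed the module in part. Of the 21 translation-list genes none passed 1.5-fold in any of the 7 cardiomyocyte-like clusters, where between 0.084% and 8.39% of all genes were higher and between 1.42% and 16.3% lower, so 0 of 21 is no result about the list. Their median was 0.861 in NPPA/NR2F2, 0.897 in LMOD2/IRX1 and 1.14 in S100A8/HEY2, on the same sides of 1 as the members and nearer to it, also with TMM. In cardiomyocyte-like against other classes 1 of 21 was higher, EIF3K, a subunit of initiation factor 3 (683 and 440 CPM, 1.55-fold), and 2 were lower, HNRNPA1 (0.627) and VIM (0.651), the intermediate filament of mesenchymal cells, where 12.3% and 24.8% of all genes were. Of 27 measured ribosome-biogenesis genes 1 was higher, NOP10 (1.53-fold), and 4 lower, also below those shares of all genes, among them NCL, the nucleolar protein nucleolin (455 and 697 CPM, 0.653), and DKC1 (0.538), the pseudouridine synthase of the complex that holds NOP10. The biogenesis median was 0.876, near the 0.881 of all genes. In NPPA/NR2F2, LMOD2/IRX1 and S100A8/HEY2 no biogenesis gene was called, with medians of 0.865, 0.861 and 1.01, while 1 was lower in MT1G/MT2A and 1 higher in MT3/NMB. Of the mTOR and LARP1 control genes (12 measured), 0 were called in cardiomyocyte-like against other classes. Among the clusters, TSC1, an inhibitor of mTOR signalling, was called lower in S100A8/HEY2 (0.657), and the kinase MTOR (0.437) and RPS6KB2 (0.666) in MT3/NMB, where 12.3% and 16.3% of all genes were lower; the other 5 clusters had 0 calls. Their median was 1.06 in NPPA/NR2F2, 1.16 in LMOD2/IRX1 and 0.807 in S100A8/HEY2, and with TMM the first turned to under 1 (0.988) and the others were 1.003 and 0.946. At 10 G2M genes RHEB, the activator of mTOR, was called higher (1.61-fold; 7.68% of all genes). Against cardiomyocyte-like cells, 2 of the 12 were higher (28.0% of all genes) and 1 lower (18.9%) in epithelial-like cells. Counts higher and lower were 0 (21.0%) and 1 (16.5%) in endoderm-like and 2 (22.3%) and 0 (21.0%) in epicardial-like cells. They were 0 (25.4%) and 2 (29.4%) in endothelial-like and 0 (24.8%) and 0 (10.9%) in stromal-like cells. All lie below the shares of all genes and are no result about the list. EIF4EBP1, a translation repressor that mTOR phosphorylates, was at 228 CPM in cardiomyocyte-like, 138 in epithelial-like, 139 in endoderm-like and 383 CPM in epicardial-like cells.

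RPL3L, the striated-muscle form of RPL3, was close to absent from these cardiomyocyte-like cells. Its 9 UMIs compare with 897769 of RPL3, all 9 in cardiomyocyte-like cells, at 0.0396 CPM there. The 0 counts in the other 3032 cells allow up to 3 counts of 38422980 UMIs, so the difference between classes was not detectable at this depth. RPL3 was at 3262 CPM in cardiomyocyte-like and 3651 CPM in other classes. RPL10L had 2 UMIs. RPL36A was at 1648 and 1775 CPM, RPSA, the laminin receptor, at 2021 and 2357 CPM, and the stalk proteins RPLP0 and RPLP2 at 2631 and 2857 and at 2199 and 2713 CPM.

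The low-depth cluster had the lowest share, 12.6% of summed UMIs and a median of 5.96% over its cells. Of 82 members 73 were called lower than in cardiomyocyte-like cells (17.6% of all genes) and 0 higher (40.2%), with a median of 0.516 where all genes had 1.28. Among the exceptions at the top were RPL7L1 (1.02), RPS21 (0.750) and RPL23 (0.731), and RPL39L was lowest at 0.401. Its cells had a median of 12.2% mitochondrial UMIs, against 2.55% in cardiomyocyte-like cells. EMC10, FSIP2 and the nuclear RNAs MALAT1 and NEAT1 were among its leading genes. The part of depth and of the mitochondrial share in this result was not tested.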

How the data were processed

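The authors deposited raw UMI counts of 36601 genes and 13 hashtags in 24038 barcodes as 1 matrix. The software was Cell Ranger 4.0.0 per the file headers, and the build hg38 per the submitters' processing notes; the annotation release, the handling of multi-mapping reads and the cell calling were not stated in the sources used here. Cells needed 500 genes, 1000 UMIs and no more than 25% mitochondrial UMIs (21623 barcodes), and 1533 marked by Scrublet (scanpy 1.11.5) were removed, which left 20090 cells with 1000 to 115854 UMIs. Cells were clustered (leidenalg 0.10.2, resolution 0.6, 30 components, 15 neighbours) on 2000 variable genes without ribosomal protein, mitochondrial and readout genes. A cluster was named when a lineage list scored at least 1.5 log2 units above the mean of clusters, or otherwise when 12 cardiomyocyte markers summed to at least 20000 CPM. A cluster whose median UMIs were under 1/3 of that of all cells, with no marker of its name among its 10 leading genes, was left unnamed whatever its score; this scoring was set after the data were seen.

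Summed UMIs of the cells in a group were divided by the group's total (CPM). Shares have Clopper-Pearson and levels Poisson intervals, ratios exact conditional binomial intervals, at 95% (scipy 1.17.1); a side at 0 was set to a floor of 3 counts. No test was made, since cells of 1 pool are not replicates. The ratio, interval and TMM code were tested on simulated data. A hashtag needed at least 70% of at least 20 hashtag UMIs. Clusters are defined by genes of the same cells, so every difference between them is a description. Genes were named by a rule: the 10 members with the most UMIs, the copies and their partners, up to 4 called members a side and the 3 farthest from the median, up to 4 called genes a list, and the 10 most alike genes; a few of the genes it names are not reported here. Members and lists were chosen with earlier results of these data known. Promoter windows are from RefSeq on GRCh38.p14 and positions from GENCODE 29. Alternatives were other cell and doublet filters, resolutions, hashtags, depths, denominators, cuts, scaling and thresholds.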

Additional observations from a re-analysis of the deposited data

How the results depend on the processing

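In every alternative run, the ribosomal protein share stayed lower in cardiomyocyte-like than in other classes. It also stayed lower in cells at or above the G2M cut than in those below it. The ratio of cardiomyocyte-like to other classes (0.871) was 0.870 with the strict cell filter, 0.864 with doublets removed to the expected rate, 0.856 and 0.873 at resolutions 0.3 and 1.0, 0.874 over cells with a hashtag, 0.845 as a median over cells, 0.848 at 5000 to 20000 UMIs, 0.873 without mitochondrial UMIs, 0.873 with ribosomal proteins of other names added, such as FAU and RACK1, 0.857 with the low-depth cluster counted as cardiomyocyte-like, 0.808 without stromal-like cells and 0.844 as a median within hashtags. In the same order, as far as they apply, the ratio of highest to lowest cluster (1.44) was 1.44, 1.46, 1.39, 1.67, 1.43, 1.47, 1.46, 1.43 and 1.44. The mitotic ratio (0.952) was 0.947 with doublets removed, 0.941 over cells with a hashtag, 0.941 as a median over cells, 0.932 at 5000 to 20000 UMIs, 0.951 without mitochondrial UMIs, 0.944 within hashtags, and 0.947, 0.954 and 0.934 at cuts of 2, 5 and 10 genes. The ratio of highest to lowest hashtag (1.30) was 1.34 with doublets removed, 1.34 as a median over cells, 1.31 at 5000 to 20000 UMIs and 1.29 without mitochondrial UMIs. Percentages after the following counts are the shares of all measured genes called in the same run. Members called between classes (3, 37.1%) numbered 1 over cells with a hashtag (38%) and 1 with the low-depth cluster added (36%). They numbered 20 at the lower fold threshold tried (60.7%), 0 at 2-fold (18%) and 5 without the low-count filter (60.4%). With TMM they were 3, all higher (39.5%). Members called by mitotic state (1, 2.99%) numbered 0 at 5000 to 20000 UMIs (2.01%) and 0 at a cut of 2 genes (2.34%). They numbered 0 at 2-fold (2.1%) and 2 without the low-count filter (24.1%). Leaving out each hashtag in turn gave 0.865 to 0.877, 1.43 to 1.46, 0.950 to 0.953 and 1.22 to 1.30 for the 4 ratios. The 2 counts were 1 to 3 (36.4% to 37.7% of all genes) and 1 to 1 (2.93% to 3.03%). The count between classes was 1 without Hashtag1 or without Hashtag6. Of 37 calls of single members, 151 recomputed values over 5 alternatives kept the call and 34 fell under 1.5-fold, 19 of them with TMM; none turned direction. With TMM the members called lower against cardiomyocyte-like cells numbered 5 in stromal-like (1 per total UMI), 4 in epithelial-like (2) and 2 in endothelial-like cells (1). Those called higher numbered 0 in epithelial-like (8), 2 in epicardial-like (8) and 1 in endothelial-like cells (5). The share of all genes under TMM was not computed for these single classes, so the counts are no result about the members. The values without stromal-like cells, within hashtags and at 10 genes were alternatives chosen after seeing the data. No paired analysis was possible because the 2 GEO samples are libraries of 1 pool; this holds for GEO samples, and within hashtags, whose identity is unknown, groups were compared as values without a test. At resolution 0.3 no cluster was left unnamed for its depth. Limits: 1 pool, no replicates, unknown hashtag identities, remaining doublets and free RNA, reads shared with pseudogenes, and unequal depth between clusters.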

Other observations

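Genes of the mitochondrial ribosome, which translates the proteins encoded by mitochondrial DNA, had ratios above 1 in cardiomyocyte-like against other classes, where the cytosolic module was under 1 per total UMI and above 1 with TMM. Of 77 measured genes of a 78-gene list, 16 were higher in cardiomyocyte-like cells than in the other classes and 1 was lower, where 12.3% and 24.8% of all measured genes were called. Their median ratio was 1.28, against 0.870 for the cytosolic members, and with TMM 1.68 against 1.14. MRPL12 was at 212 and 90.7 CPM (2.33-fold), MRPL36 at 158 and 68.6 CPM (2.30-fold), MRPL34 at 155 and 76.8 CPM (2.02-fold) and MRPL15 at 130 and 67.4 CPM (1.92-fold); MRPL11 was the lower one (0.667). Against cardiomyocyte-like cells the list's medians were 0.878 in endoderm-like, 0.805 in stromal-like, 0.776 in epithelial-like, 0.764 in epicardial-like and 0.733 in endothelial-like cells, all under 1 with TMM too (0.604 to 0.754). In every cardiomyocyte-like cluster except MT3/NMB the list was on the same side of 1 as the cytosolic module under both scalings. Its medians were 0.844 in NPPA/NR2F2, 0.902 in LMOD2/IRX1, 0.954 in FOSB/ANGPT1, 1.04 in MT1G/MT2A, 1.07 in UBE2C/CDK1 and 1.14 in S100A8/HEY2. In MT3/NMB the medians were 0.893 for the mitochondrial list and 1.11 for the cytosolic members (0.981 and 1.22 with TMM).

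The p53 target list, given because RPS27L is such a target, had its highest median among the classes in endothelial-like cells, where RPS27L was at 440 CPM. Of 15 measured genes 10 were higher there than in cardiomyocyte-like cells (25.4% of all genes) and 1 lower (29.4%), with a median of 2.17. GDF15, a secreted stress factor, was at 53.6 and 5.21 CPM, and BBC3, a promoter of apoptosis, at 91.9 and 21.4 CPM (4.29-fold). A gene counts as measured by its higher side alone. GDF15, under 10 CPM in cardiomyocyte-like cells, thus entered only through the endothelial-like side. Such entries raise the count and the median, which were not recomputed without them. The endothelial-like class holds 66 cells. In epicardial-like cells, where RPS27L was lowest, 1 of 12 measured targets was higher (22.3% of all genes) and 4 lower (21.0%), with a median of 0.774. In cardiomyocyte-like against other classes, where RPS27L was called higher, 2 of 13 targets were higher (12.3%) and 2 lower (24.8%), with a median of 0.855 that turned to 1.12 with TMM. In MT3/NMB cells 6 of 14 were higher (5.52%) and 1 lower (16.3%), with a median of 1.33 where all genes had 0.880. RPS27L was at 399 CPM there and 392 CPM over all cardiomyocyte-like cells. Each other cardiomyocyte-like cluster had 12 measured targets, so the count and median of MT3/NMB carry the same limit. In epithelial-like cells the counts were near the background, with 4 of 13 higher (28.0%) and 2 lower (18.9%), among the latter CDKN1A, the cell cycle inhibitor p21, at 10.8 and 34.4 CPM.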
